A study of Mus musculus with 60 samples.

Results

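The genes described here encode subunits of the oxidative phosphorylation system: 54 genes picked by symbol from the 54232 gene IDs counted in each library, of which 13 lie on the mitochondrial chromosome and 41 in the nucleus. By role, they comprised complex I (NADH dehydrogenase), complex II (succinate dehydrogenase), complex III (the cytochrome bc1 complex), complex IV (cytochrome c oxidase), complex V (ATP synthase) and the electron carrier cytochrome c. The rule is a list of symbols with no threshold on a measured value, drawn up with earlier results of these data known. All 54 were found in the files and passed the filter on low counts in every tissue.

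The respiratory chain passes electrons from NADH and succinate to oxygen and pumps protons across the inner mitochondrial membrane, and ATP synthase uses the proton gradient to make ATP. All complexes but complex II combine subunits made inside the mitochondrion from its own chromosome with subunits made from nuclear genes and imported, so both sets of mRNA are needed for a complete enzyme. In liver this machinery burns fatty acids and feeds glucose synthesis, and in white fat it serves fat cell differentiation and lipid synthesis. Nuclear respiratory factor 1 (NRF1), GA-binding protein (GABP) and oestrogen-related receptor alpha (Esrra) are known regulators of the nuclear genes, and Tfam is the main packaging and transcription factor of mitochondrial DNA.

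RNA-seq was done on mouse liver, subcutaneous fat and visceral fat. Each tissue came from 4 groups with 5 libraries per group, 60 libraries in all: control chow (11% fat and 62% carbohydrate), the same chow with NaKtide, a Western diet (42% fat and 42.7% carbohydrate), and the Western diet with NaKtide, each for 12 weeks with 5 mice per group by the design text. NaKtide is a peptide that blocks signalling through the sodium pump (Na,K-ATPase) and Src kinase, and here it was expressed from a transgene that doxycycline in the feed (300 mg/kg) switched on. The labels do not say which promoter drove the transgene in which cells, nor whether mice without NaKtide ate doxycycline, so peptide and antibiotic cannot be told apart.

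Libraries held 3.18 to 9.78 M counts (median 6.41 M). The tissues carried their defining markers: hepatocyte genes summed to 30009 to 49028 CPM (counts scaled to the same library size within a tissue, with edgeR's TMM factors) in liver, and adipocyte genes reached medians of 22452 CPM in subcutaneous and 19095.0 CPM in visceral fat. Some fat libraries stood apart. Skeletal muscle markers, at a median of 2470.4 CPM in subcutaneous fat, exceeded 20000 CPM in control libraries 2, 3 and 5 and NaKtide control library 2. In liver, control libraries 2 and 4 held 361 and 756 CPM of them, beside 3.02 to 18.9 CPM in the other 18. Testis and epididymis markers exceeded 1000 CPM in 6 visceral libraries (control 3, 4 and 5, NaKtide control 1, NaKtide Western 2 and 5), and visceral control 5 held 1003 CPM of adipocyte markers, the lowest of the 20. In bulk tissue, fewer cells of a type and less RNA per cell cannot be told apart.

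The sequence of a mitochondrial subunit gene bears on how its reads can be counted. Mitochondrial genes abut or overlap, and the nuclear genome holds old copies of stretches of the mitochondrial chromosome. mt-Atp8, a small membrane subunit of ATP synthase, shares its end with the start of mt-Atp6, the proton channel subunit. Its 204-base coding sequence (GRCm38, chrM:7766-7969, plus strand) is printed because this gene had the lowest log2 value of all members in the visceral fat diet comparison without NaKtide. Capitals mark the 43 bases that also belong to mt-Atp6, where a read cannot be given to either gene alone.
mt-Atp8: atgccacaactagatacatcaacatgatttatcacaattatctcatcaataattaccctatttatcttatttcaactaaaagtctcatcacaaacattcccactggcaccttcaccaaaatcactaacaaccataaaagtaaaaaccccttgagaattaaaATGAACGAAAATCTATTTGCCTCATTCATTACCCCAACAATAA

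mt-Nd3, a core membrane subunit of complex I, passed the test in 7 of the 17 comparisons. Its first 32 bases (GRCm38, chrM:9459-9490, plus strand) are shown with those of Gm28438, its copy on chromosome 1 (minus strand). Capitals mark the only difference between them in this stretch, T3C, counted from the first base of mt-Nd3.
mt-Nd3: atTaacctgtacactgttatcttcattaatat
Gm28438: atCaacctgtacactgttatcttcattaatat

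The files listed nearly the same count for both: mt-Nd3 held 49.15 to 51.21% of the summed counts of the pair over the 60 libraries. The split was as even for mt-Co3 and its copy Gm28437 (49.71 to 50.26%), for mt-Atp6 and Gm10925 (49.92 to 50.55%), for mt-Co2 and Gm28661 (49.85 to 50.48%) and for mt-Nd4l and Gm10222 (49.24 to 51.02%). In all, 19 members (9 mitochondrial and 10 nuclear) had a copy of at least 95% identity over at least 100 bases in the annotation. Among nuclear members the genes matched in this way held counts equal to 286% of the member's own for Cycs, 78.7% for Cox7c and 43.6% for Uqcrb. For Cycs and Cox6c they include other protein-coding genes that match over a short stretch only. Man2a2 matched 128 of 3123 Cycs bases and held 64.3% of the Cycs counts, and Wdr33 matched 124 of 3038 Cox6c bases. Gm10053, the Cycs copy with the most counts, matched 946 bases and held 91.6%. How reads that match several genes were counted is not given in the sources used here, so the levels of these 19 members are uncertain while the comparisons between libraries use the same counting throughout.

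Promoter sequences were available for 31 of the 41 nuclear members (RefSeq, GRCm38.p6), as 33 windows of 250 bases before to 50 after a gene's start. Cox6a1, the most abundant nuclear member, and Sdhd, a membrane anchor of complex II that fell in liver, are shown as examples from a complex IV and a complex II member. Capitals mark TGCGCA (a part of the NRF1 motif) and CTTCCGG (the reverse complement of CCGGAAG, the GABP motif). Both lie in the Cox6a1 stretch, and CTTCCGG lies in the Sdhd stretch. Only these exact letters are marked, so other forms of either motif stay in lower case. The Sdhd window also holds TGCGCA outside the printed stretch, at bases -189 to -184 and -80 to -75 from the start. The Cox6a1 stretch is chr5:115348959-115349128 and the Sdhd stretch chr9:50603850-50603909, both on the minus strand.
Cox6a1: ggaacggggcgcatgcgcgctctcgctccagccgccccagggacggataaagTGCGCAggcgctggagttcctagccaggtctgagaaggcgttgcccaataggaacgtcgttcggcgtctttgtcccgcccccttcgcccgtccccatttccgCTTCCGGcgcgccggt
Sdhd: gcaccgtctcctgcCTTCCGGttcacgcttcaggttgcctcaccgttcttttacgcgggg

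TGCGCA, searched on both strands as were the others, was found in 33.3% of the member windows and in 7.76% of all 32851 windows, among the members in Cox5b, Ndufa5 and Uqcrc1. CCGGAAG was found in 18.2% of member windows against 8.86% of all, AAGATGG (the core of the YY1 motif) in 15.2% against 6.34%, and AAGGTCA (the Esrra motif) in 3.03% against 4.72%. These are matches of letters in a window, not measured binding.

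Levels between genes were compared per length, as the deposited FPKM. Mitochondrial mRNAs stood far above nuclear ones. In liver the 13 mitochondrial members took ranks 1 to 13 of the 54, from mt-Co2 with a median of 23273 FPKM over 20 libraries down to mt-Nd5 with 1519. Cox6a1 was the highest nuclear member with 1085 FPKM, followed by Cox6b1 with 835, both peripheral subunits of complex IV. Ndufs1, the large iron-sulfur subunit of complex I, was the lowest of all. In subcutaneous fat mt-Co2 again led with 6719 FPKM, and in visceral fat with 4279.7. Cox6a1, at 568 and 489.9 FPKM, passed the lowest mitochondrial member in both depots, mt-Atp8 with 555 and 304 FPKM. mt-Atp6, which overlaps mt-Atp8 by 43 bases, had 3963 and 2328 FPKM. These are values per gene, not per mRNA molecule. The mitochondrial members took 4.76 to 16.7% of all counts in liver, 2.35 to 17.5% in subcutaneous and 0.879 to 6.33% in visceral fat. Counts listed under near-identical nuclear copies are not part of these levels and shares. For mitochondrial members with a copy, they came to between 1.42% (mt-Nd2) and 107% (mt-Co2) of the member's own counts. Ranks among mitochondrial members are thus uncertain.

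**Figure D1:**
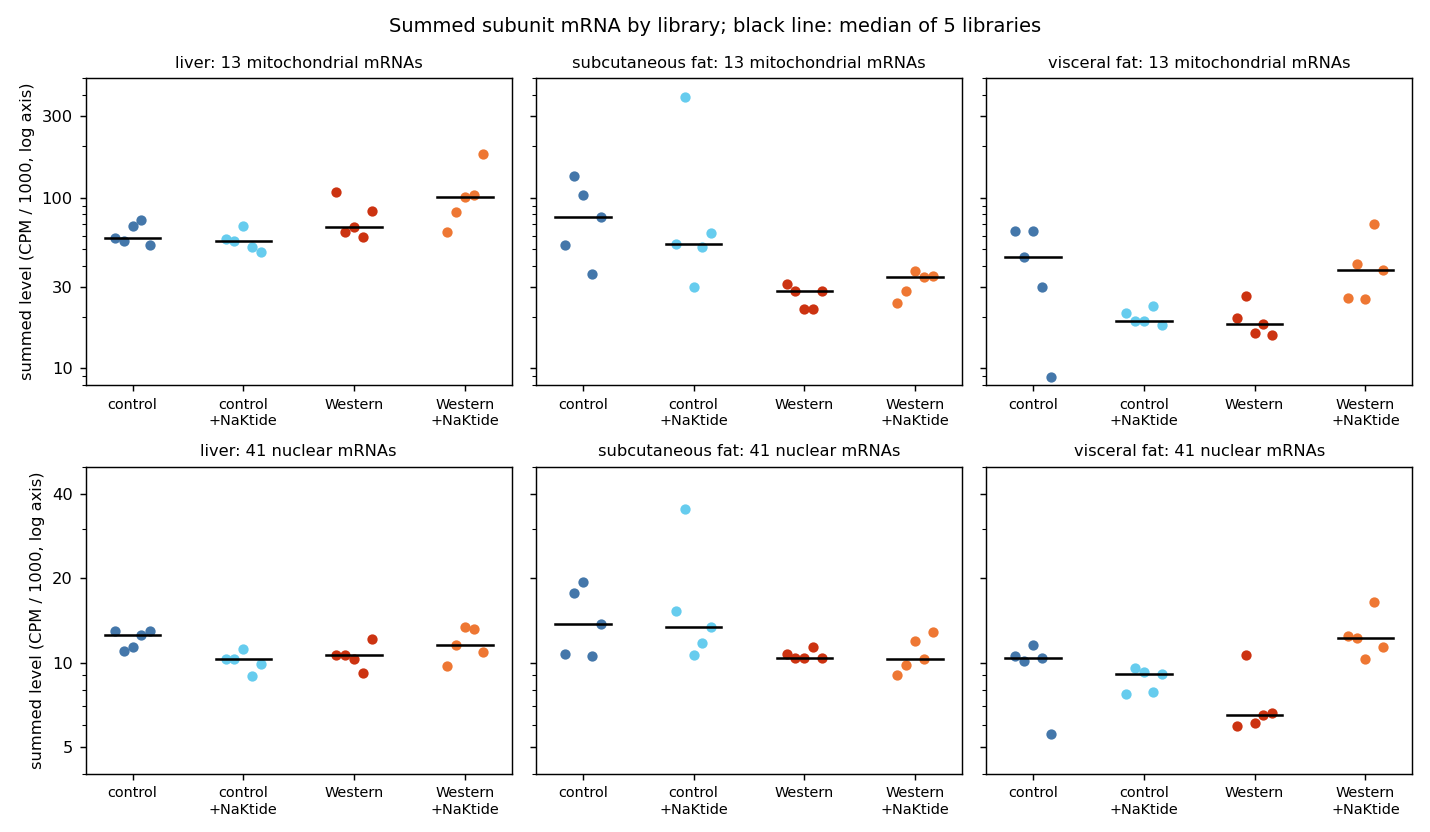
Summed level (CPM divided by 1000, log axis) of the 13 mitochondrial members (top) and the 41 nuclear members (bottom) in each of the 60 libraries. Libraries are set out by tissue and group, with a black line at the median of 5 libraries. Libraries were scaled within each tissue, so levels are read within a panel. In liver the median mitochondrial sum was highest in the NaKtide Western group, visceral control library 5 had the lowest mitochondrial sum of its tissue, and subcutaneous NaKtide control library 2 stood above the other 19 of its tissue in both sums.

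In liver, few subunit mRNAs passed the test for the Western diet without NaKtide. Of the 54 members, 2 passed the quasi-likelihood test of edgeR, adjusted after Benjamini and Hochberg, against 8.44% of all 12991 genes tested. mt-Nd4l, a small membrane subunit of complex I, rose, with a log2 fold change of 1.21 ± 0.34 (SE), adjusted p = 0.0284. It was 188, 259.9, 267, 480.4 and 131 CPM in control libraries and 993, 378, 542, 547 and 602 CPM in Western libraries. The groups overlapped only through control 4 and Western 2. mt-Nd4, whose first 7 bases are the last 7 of mt-Nd4l, was not called. Ndufv1, the flavoprotein that takes electrons from NADH, fell, with a log2 fold change of -0.50 ± 0.15 (SE), adjusted p = 0.043. Neither call held in every refit. The first was kept in 5 of 10 refits that left out 1 library (lost without control 1, control 2, control 3, control 5 and Western 1), and the second in 3 of 10 (lost without control 1, control 2, control 5, Western 1, Western 2, Western 3 and Western 5). The number of members called went to 0 (control 1, control 5, Western 1), 1 (control 2, Western 2, Western 3, Western 5) and 4 (control 4) when the library in parentheses was left out. The median log2 fold change was 0.34 over mitochondrial members (12 of 13 above 0) and -0.20 over nuclear members (35 of 41 below 0), with 0.03 over all genes.

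With NaKtide, 34 of the 54 members were called in the same diet comparison in liver. All 13 mitochondrial members rose, and of the 41 nuclear members 15 rose and 6 fell. Over all genes 24.5% were called, 12.9% higher and 11.7% lower. The median log2 fold change was 0.94 over mitochondrial members, 0.30 over nuclear members and -0.02 over all genes. The 5 libraries of the Western group lay above the 5 of the control group without overlap for 7 mitochondrial and 3 nuclear members, and below for 1 nuclear member, which happened for 7.11% (higher) and 6.21% (lower) of all genes.

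Among the mitochondrial members, the largest rise was in mt-Nd3. It was 662, 822, 1027, 509.8 and 481 CPM in the NaKtide control libraries and 922, 1703, 1939.8, 2163 and 2794 CPM in the NaKtide Western libraries. NaKtide Western library 1 lay among the control values and the other 4 lay above all of them. The log2 fold change was 1.44 ± 0.30 (SE), adjusted p = 0.00237. mt-Co3, a core subunit of complex IV, was 6751, 6439, 9332, 6414 and 5175 CPM against 9516, 10207, 13721, 15476 and 25068 CPM, and every Western library was above every control library (log2 1.12 ± 0.25 (SE), adjusted p = 0.00429). mt-Nd1, the complex I subunit at the quinone site, was 2583, 2619, 2918, 2293 and 2238 CPM against 3062, 4015, 4647, 5032 and 7445 CPM, again without overlap (log2 0.94 ± 0.21 (SE), adjusted p = 0.00491). The other 10 ranged from 0.76 for mt-Cytb, the haem-carrying subunit of complex III, upward, with mt-Atp8 the highest of them. NaKtide Western library 5 was the highest library in mt-Nd3, mt-Co3 and mt-Nd1 alike.

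In complex I, 5 of 17 nuclear members rose and 1 fell. Ndufa10, an accessory subunit, was 243, 247, 226, 199 and 236 CPM in NaKtide control and 299, 356, 422, 446 and 289.6 CPM in NaKtide Western libraries, without overlap (log2 0.65 ± 0.15 (SE), adjusted p = 0.00447). Ndufa5 rose by 0.99 ± 0.28, the iron-sulfur subunit Ndufs8 by 0.78 ± 0.23, Ndufa8 by 0.60 ± 0.15 and Ndufv2, which carries an iron-sulfur cluster beside Ndufv1, by 0.51 on the log2 scale. Ndufv1 went the other way, at 173, 148, 181, 160.2 and 179.8 CPM against 135, 116, 111, 108 and 109 CPM. All 5 Western libraries were below all 5 control libraries, and the log2 fold change was -0.54 ± 0.15 (SE), adjusted p = 0.0154. Ndufv1 and Ndufv2, neighbours in the NADH-binding arm, moved in opposite directions.

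Complex II, the only complex with no mitochondrial gene, had 1 member that rose and 2 that fell out of 4. Sdhd was 141, 92.2, 148, 178 and 146 CPM in NaKtide control and 116, 62.3, 49.4, 41.9 and 86.8 CPM in NaKtide Western libraries. NaKtide Western library 1 lay among the controls and the other 4 below all of them (log2 -0.98 ± 0.28 (SE), adjusted p = 0.0177). Sdha, the flavoprotein that oxidises succinate, was 295, 212, 299, 435 and 358 CPM against 297, 174, 129, 136 and 190.3 CPM, with the same library high (log2 -0.79 ± 0.26 (SE), adjusted p = 0.0357). Sdhb, the iron-sulfur subunit, rose by 0.45. The fall of Sdha held in 3 of 10 refits with 1 library left out (lost without NaKtide control 1, NaKtide control 4, NaKtide control 5, NaKtide Western 2, NaKtide Western 3, NaKtide Western 4 and NaKtide Western 5) and that of Sdhd in 9 of 10 (lost without NaKtide Western 4).

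In complex III the small subunits Uqcrb (log2 0.72) and Uqcrq (0.71) rose and the other 4 of 6 were not called. In complex IV 6 of 9 rose. Cox7c led, at 242, 301, 283, 166 and 229.7 CPM against 254, 559.7, 774, 676 and 445 CPM (log2 1.15 ± 0.29 (SE), adjusted p = 0.00845), with NaKtide Western library 1 again among the controls. Cox6b1 was 331, 377, 328, 234 and 306 CPM against 308, 516, 653, 674 and 453 CPM (log2 0.72 ± 0.20 (SE), adjusted p = 0.0154, not called without NaKtide Western 4). Ndufa4, a subunit first assigned to complex I and now to complex IV, fell (log2 -0.44 ± 0.15). In complex V, both subunits of the catalytic head fell, Atp5a1 (alpha) by a log2 value of -0.71 ± 0.21 (SE), adjusted p = 0.02, and Atp5b (beta) by -0.67 ± 0.22 (SE), adjusted p = 0.0359. Atp5b was 739, 596, 749, 891 and 866 CPM against 632, 419, 439.8, 465 and 465 CPM. With 1 library left out, the fall of Atp5b held in 2 of 10 refits (kept only without NaKtide control 2 or NaKtide Western 1), that of Atp5a1 in 8 of 10 (lost without NaKtide Western 3 and NaKtide Western 4) and that of Ndufa4 in 4 of 10 (lost without NaKtide control 1, NaKtide control 3, NaKtide Western 2, NaKtide Western 3, NaKtide Western 4 and NaKtide Western 5). Cytochrome c (Cycs) rose by 0.37 ± 0.12.

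**Figure D2:**
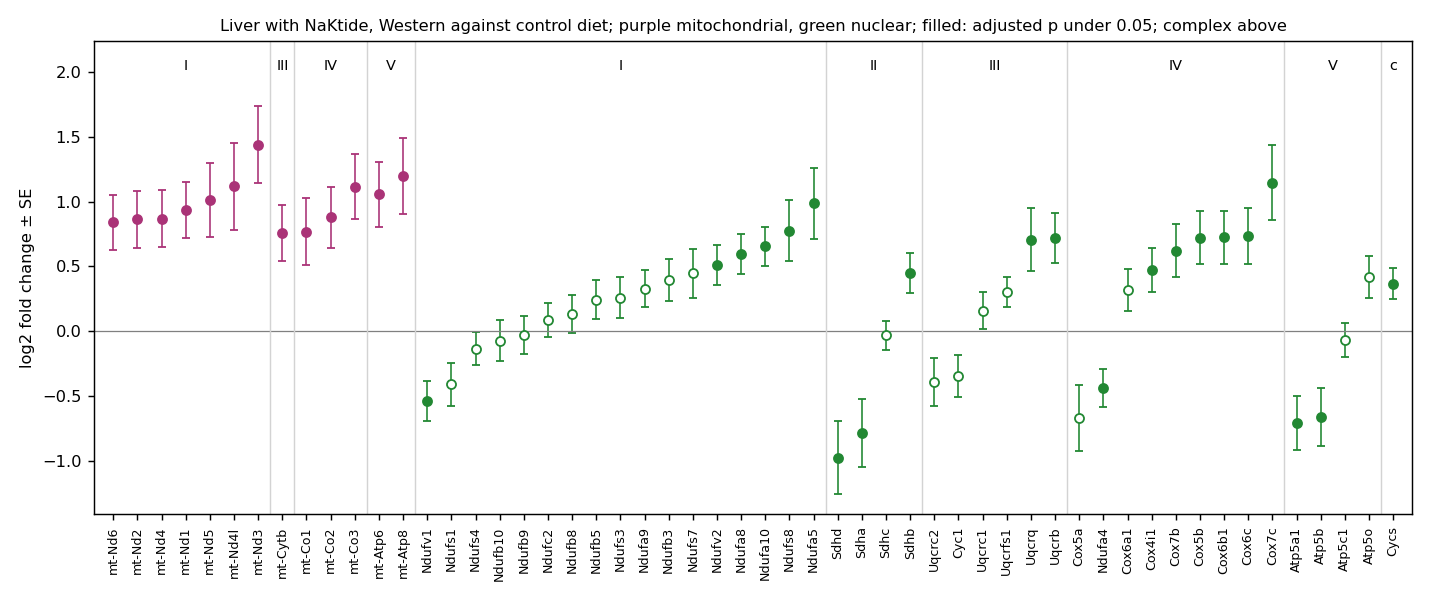
Log2 fold change ± SE of each of the 54 members in liver with NaKtide, Western against control diet, ordered by complex (Roman numerals, c for cytochrome c). The 13 mitochondrial members (purple) were all called higher, and the called nuclear members (filled green) ran from -0.98 for Sdhd to 1.15 for Cox7c.

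The number of members called in this comparison was 34, and it was 18 (NaKtide Western 4) and 21 (NaKtide Western 5) when the library in parentheses was left out. Genes with a longer exon length, taken over all annotated exons of a gene merged, tended to lower values. Across the 41 nuclear members, Spearman's rho of the log2 fold change with exon length was -0.39, beside -0.11 over all genes with a length, as a description across genes. The median log2 fold change of all genes under 1000 bases was 0.25 and that of longer genes -0.04. Called nuclear members that rose had a median exon length of 1550.0 bases and those that fell 2884.5 bases. The shortest mitochondrial members were mt-Atp8 (204 bases), mt-Nd4l (297) and mt-Nd3 (348), and mt-Nd3 had the largest mitochondrial rise. The part of length in the result was not tested. Macrophage markers also differed: they summed to 454 to 566 CPM in NaKtide Western and 174 to 348 CPM in NaKtide control libraries without overlap, 8 of 9 being called higher, and 4 of 8 hepatocyte markers were called lower. Cholangiocyte markers summed to 65.0 to 276 CPM against 10.2 to 26.1 CPM, also without overlap, 3 of 4 being called higher, and were highest in NaKtide Western 5 and 4, which had the highest mitochondrial sums. Fibroblast markers summed to 132 to 353 CPM against 80.4 to 132 CPM (4 of 6 called higher and 1 lower), and brown and beige fat markers to 50.2 to 72.2 CPM against 121 to 246 CPM. Their part in the result was not tested.

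Other mitochondrial genes were called in both directions in this liver comparison, where 12.9% of all genes were called higher and 11.7% lower. Of 38 other subunits tested, 15 rose and 2 fell, among the former Ndufa12 (log2 0.71) and Ndufab1 (0.55). Of 39 assembly factors 8 rose and 2 fell, and of 77 mitochondrial ribosomal proteins 11 rose, Mrps28 first (0.99), and 6 fell, Mrps18b first (-1.45). The shares called among assembly factors and ribosomal proteins were thus near or below the 24.5% of all genes. Of 13 enzymes of the TCA cycle, which supplies the electrons, 3 rose, citrate synthase (Cs, 0.41) among them, and 3 fell. Tfam fell (log2 -0.46 ± 0.13 (SE), adjusted p = 0.0177), while the mitochondrial mRNAs rose. Of 12 nuclear regulators tested, Esrra rose (0.59 ± 0.15 (SE), adjusted p = 0.00962) and 3 fell, among them Sirt3, the mitochondrial deacetylase (-0.87), and Gabpa, the DNA-binding part of GABP (-0.94). Neither mitochondrial ribosomal RNA was called (median log2 0.65).

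The comparisons of NaKtide within each diet gave few calls in liver. On control diet no member passed edgeR's test against 1.55% of all genes, while 12 had an unadjusted p under 0.05 (18.9% of all genes) and DESeq2 called 1 (3.27% of all genes). The smallest adjusted p was that of Ndufs7, the iron-sulfur subunit next to the quinone site (log2 -0.73 ± 0.19 (SE), adjusted p = 0.0522), and the next that of Cox6a1 (-0.48, adjusted p = 0.138). The log2 difference was below 0 for 45 of 54 members. On Western diet 1 member was called, against 4.79% of all genes. This was mt-Nd3, at 1383, 688, 665, 488 and 828 CPM without and 922, 1703, 1939.8, 2163 and 2794 CPM with NaKtide (log2 1.23 ± 0.30 (SE), adjusted p = 0.0186). Western library 1 without NaKtide lay among the NaKtide libraries, and NaKtide Western library 1 was closer to the other group. The count depended on those libraries: it was 0 (Western 2, Western 3, Western 4, NaKtide Western 4, NaKtide Western 5), 8 (Western 1) and 17 (NaKtide Western 1) when the library in parentheses was left out, and 31 (22 higher and 9 lower) without both libraries numbered 1. Esrra rose with NaKtide on Western diet (log2 0.95 ± 0.15 (SE), adjusted p = 0.00129).

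The interaction asks whether the NaKtide difference on Western diet differs from that on control diet. In liver 4 members passed, all upward, against 5% of all genes (2.07% upward). mt-Nd3 had a log2 interaction of 1.71 ± 0.42 (SE), adjusted p = 0.0272. Cox6b1 followed with 1.19 ± 0.29 (SE), adjusted p = 0.0263, Ndufs7 with 1.01 ± 0.27 (SE), adjusted p = 0.0379 and Cox7c with 1.39 ± 0.40 (SE), adjusted p = 0.0488. Cox7c was 303, 247, 458, 460.4 and 305 CPM on control diet and 454, 302, 238, 147 and 357 CPM on Western diet without NaKtide, beside the NaKtide values given above. Ndufs7 was 187, 132, 188, 191 and 197 CPM in control, 123, 127, 122, 72.2 and 95.8 CPM in NaKtide control, 134, 129.8, 105, 86.8 and 149.9 CPM in Western and 102, 159, 175, 176 and 125 CPM in NaKtide Western libraries. All 5 NaKtide control libraries were below all 5 control libraries, and the Western groups overlapped. These calls held in 13 of 20, 15 of 20, 8 of 20 and 5 of 20 refits with 1 library left out, in that order. The count moved to 0 (NaKtide control 4, NaKtide control 5, Western 3, NaKtide Western 3, NaKtide Western 4), 1 (Western 2), 2 (control 1, control 3, control 4, control 5, Western 4, NaKtide Western 2, NaKtide Western 5), 9 (NaKtide control 2), 11 (control 2, Western 5), 18 (Western 1) and 22 (NaKtide Western 1), to 31 without Western 1 and NaKtide Western 1, to 17 with DESeq2 (12% of all genes) and to 0 with the replicate block.

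In subcutaneous fat, mitochondrial mRNA values were lower on the Western diet, and they varied with the muscle markers of the libraries. Without NaKtide 1 member was called, against 5.61% of all 15226 genes. This was mt-Nd3, which was 515, 2314, 1574, 373 and 1262 CPM in control and 230.4, 292, 223, 259 and 240.1 CPM in Western libraries (log2 -2.28 ± 0.65 (SE), adjusted p = 0.046). Every Western library was below every control library, and the control libraries spread far more. All 13 mitochondrial members had a log2 value below 0 (median -1.58) and so did 39 of 41 nuclear members (median -0.57, -0.02 over all genes). Groups did not overlap for 11 mitochondrial and 4 nuclear members, as for 6.19% of all genes.

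Skeletal muscle markers moved with these values. They summed to 16155, 54086, 61105, 8069.9 and 47078 CPM in control libraries and 118, 73.1, 97.3, 265 and 91.9 CPM in Western libraries. With NaKtide they were 10786, 262043, 115, 3463 and 18368 CPM on control and 57.3, 1478, 4157, 974 and 102 CPM on Western diet. Control libraries 2, 3 and 5 were the highest of their group in muscle markers and in mt-Nd3 alike. The complex IV isoforms of striated muscle and brown fat, Cox6a2, Cox7a1 and Cox8b, which are not among the 54, summed to 265, 1068, 1339, 192 and 623 CPM in control and 50.5 to 189 CPM in Western libraries. Of these, Cox6a2 fell (log2 -8.84 ± 1.71 (SE), adjusted p = 0.0127). Without the muscle-rich libraries mt-Nd3 had a log2 value of -0.82 and no member was called. That refit held 2 of 5 control libraries, 1 and 4, which still had 16155 and 8069.9 CPM of muscle markers. With so few control libraries the test had less power. With the muscle markers as a covariate the value of mt-Nd3 was 0.34. The muscle markers of these control and Western libraries did not overlap, so this fit cannot separate diet from muscle content. The count of members called was 0 (control 2, control 3, control 5, Western 1, Western 2, Western 3, Western 4, Western 5), 2 (control 1) and 6 (control 4) when the library in parentheses was left out.

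**Figure D3:**
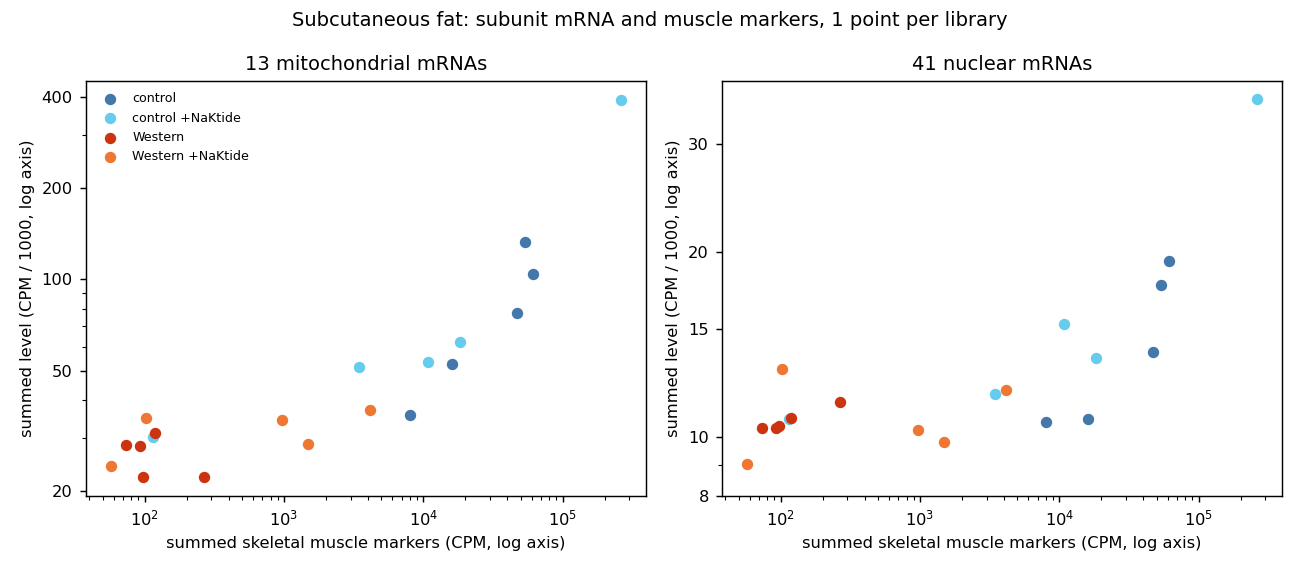
Summed level of the 13 mitochondrial members (left) and 41 nuclear members (right) against summed skeletal muscle markers in the 20 subcutaneous libraries, log axes. NaKtide control library 2 has the most muscle markers and the highest sums, and the 5 Western libraries without NaKtide all lie at 265 CPM of muscle markers or less.

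With NaKtide, the diet comparison in subcutaneous fat gave no call among members or among any of the 15226 genes (0%). By unadjusted p under 0.05, edgeR had 48 members, beside 24.5% of all genes, and DESeq2 called 27 after adjustment, beside 6.99% of all genes. The smallest adjusted p were those of mt-Nd3 (log2 -2.60, adjusted p = 0.0596) and mt-Atp8 (-2.57, adjusted p = 0.0602). Without NaKtide control 2, the library with the most muscle markers, these log2 values were -1.09 and -1.02. The median log2 value was -1.89 over mitochondrial and -0.78 over nuclear members. NaKtide control library 2 held 391180 CPM of mitochondrial mRNA and NaKtide control library 3, with the fewest muscle markers of its group, 30188 CPM. The count was 1 (NaKtide control 4) and 35 (NaKtide control 3) when the library in parentheses was left out. NaKtide gave no call on control diet (edgeR, 0% of all genes, 1 member and 6.03% of all genes with an unadjusted p under 0.05, 0 members and 0% with DESeq2). On Western diet there was likewise no call (0%, 0 members and 12.3% of all genes unadjusted, 0 members and 1.65% with DESeq2), nor in the interaction (0%, 2 members and 11.2% unadjusted, 0 members and 0.363% with DESeq2). On Western diet the NaKtide differences were small, with a median log2 value of 0.26 for mitochondrial and 0.02 for nuclear members.

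In visceral fat without NaKtide, 13 members fell on the Western diet and none rose. Over all 17235 genes 24.9% were called and 14.3% were lower, so the share of 13 in 54 was close to that of all genes called in either direction and above that of genes called lower. Of the 13 mitochondrial members 5 fell: mt-Atp8 (log2 -2.32 ± 0.59 (SE), adjusted p = 0.0129), mt-Nd3 (-2.04 ± 0.61), mt-Co3 (-1.64 ± 0.43 (SE), adjusted p = 0.0156), mt-Atp6 (-1.54) and mt-Co2 (-1.21). Of the 41 nuclear members 8 fell, 5 in complex I and 3 in complex IV, none in complex II, III or V. Ndufc2, an accessory complex I subunit, had a log2 value of -1.11 ± 0.28 (SE), adjusted p = 0.0119, and Ndufa5 one of -1.31. The medians were -1.03 over mitochondrial members, -0.50 over nuclear members and -0.22 over all genes.

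mt-Co3 was 6429.5, 4966, 11695, 4811 and 1299 CPM in control and 1829.7, 2907, 1526, 1716 and 1403 CPM in Western libraries. Control library 5 was below all Western libraries and the other 4 control libraries were above them. mt-Atp8 was 432, 201, 398, 139 and 26.5 CPM against 31.1, 77.5, 30.4, 61.6 and 38.9 CPM, with the same control library at the bottom. For every member called the groups overlapped, through control 5 or Western 2. With 1 library left out, the fall of mt-Co3 held in 7 of 10 refits (lost without control 3, Western 3 and Western 5), that of mt-Nd3 in 4 of 10 and that of Ndufa5 in 5 of 10, while mt-Atp8 and Ndufc2 were called in 10 of 10. The number of members called went to 2 (Western 3), 3 (control 3, Western 5), 4 (Western 4), 6 (control 4), 8 (Western 1) and 32 (control 5, Western 2) when the library in parentheses was left out, and to 15 without the libraries rich in testis and epididymis markers. That last refit held 2 of 5 control libraries. Control library 5 had the fewest adipocyte markers, and Western library 2 the largest sum of nuclear members of its group (10647 CPM against 5939.9 to 6580.2 CPM in the other 4).

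With NaKtide the diet difference in visceral fat had the other sign. All 54 members had a log2 value above 0, with medians of 0.98 over mitochondrial and 0.59 over nuclear members against 0.04 over all genes. Uqcrc2, a core protein of complex III, was the 1 member called, against 4.82% of all genes. It was 87.3, 119, 108, 106 and 111 CPM in NaKtide control and 239.8, 180.4, 167, 202 and 105 CPM in NaKtide Western libraries (log2 0.75 ± 0.17 (SE), adjusted p = 0.016). Library 5 of the NaKtide Western group lay among the controls and the other 4 above them. Groups did not overlap for 7 mitochondrial and 17 nuclear members, all higher, as for 2.91% of all genes. The count of members called was 0 (NaKtide control 1, NaKtide control 3, NaKtide control 4, NaKtide control 5, NaKtide Western 1) and 2 (NaKtide Western 5) when the library in parentheses was left out. It was 13 without the libraries rich in testis and epididymis markers, which left 4 NaKtide control and 3 NaKtide Western libraries.

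With NaKtide on control diet no member was called in visceral fat by edgeR, against 7.15% of all genes. At an unadjusted p under 0.05 there were 16 members, beside 26.7% of all genes, and DESeq2 called 9, all lower, beside 13.9% of all genes in either direction. The smallest adjusted p were those of mt-Nd5 (log2 -1.37, adjusted p = 0.0547) and mt-Co3 (-1.39, adjusted p = 0.056). All 13 mitochondrial members had a log2 value below 0 (median -1.13), and the nuclear median was -0.21. The count was 1 (NaKtide control 1) and 15 (control 5) when the library in parentheses was left out. The mitochondrial sum was 63568, 45069, 63539, 29854 and 8962 CPM without and 21265, 18895, 18926, 23239 and 17979.8 CPM with NaKtide. Again control library 5 was the lowest of all and the other 4 control libraries lay above all NaKtide libraries.

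On Western diet 30 members rose with NaKtide and none fell, against 13.2% of all genes called and 6.23% called higher. All 54 log2 values were above 0, with a median of 0.91 beside 0.03 over all genes. 5 mitochondrial and 25 nuclear members rose. Of the nuclear members, complex I had 13 of 17, complex II 1 of 4, complex III 4 of 6, complex IV 6 of 9 and complex V 1 of 4. Groups did not overlap for 3 mitochondrial and 7 nuclear members, as for 4.04% of all genes.

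In complex I, Ndufb10, an accessory subunit of the membrane arm, was 85.9, 196, 78.5, 109.7 and 104 CPM without and 219, 259, 202, 361 and 299 CPM with NaKtide. Every NaKtide library was above every library without it, Western 2 coming closest, and the log2 value was 1.22 ± 0.26 (SE), adjusted p = 0.00636. Ndufa5 was 42.1, 107, 34.6, 42.7 and 45.4 CPM against 97.8, 122, 96.2, 211 and 224 CPM (log2 1.47 ± 0.37). Here Western library 2 lay among the NaKtide libraries. Ndufa9 rose by 0.73 ± 0.15 (SE), adjusted p = 0.00556, and Sdhb, the iron-sulfur subunit of complex II, by 0.93 ± 0.22. In complex III, Uqcrfs1, the Rieske iron-sulfur protein, was 92.1, 145, 98.7, 94.1 and 93.5 CPM against 226, 211, 166, 326 and 150.4 CPM, without overlap (log2 1.04 ± 0.23 (SE), adjusted p = 0.00814). In complex IV, Cox7c rose by 1.38, Cox6c by 1.24 and Cox4i1 by 1.14. In complex V, Atp5c1, the rotating gamma subunit, rose by 0.79, and Atp5a1 was not called (log2 0.32 ± 0.23).

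Of the mitochondrial members, mt-Nd3 (log2 1.91 ± 0.61), mt-Atp8 (1.84 ± 0.58), mt-Co3 (1.36 ± 0.43), mt-Nd6 (1.31 ± 0.42) and mt-Co2 rose. mt-Co3 was 2819, 4846, 2553, 7958 and 5876 CPM with NaKtide, beside the Western values given above. NaKtide library 4 was the highest, and libraries 1 and 3 were below Western library 2. With 1 library left out, the calls of mt-Nd3, mt-Atp8 and mt-Co3 each held in 3 of 10 refits (lost without NaKtide Western 2, NaKtide Western 4, NaKtide Western 5, Western 1, Western 3, Western 4 and Western 5) and that of mt-Nd6 in 2 of 10, while Ndufb10, Ndufa9 and Uqcrfs1 were called in 10 of 10. The count of members called was 6 (Western 3), 8 (Western 4, Western 5), 9 (Western 1, NaKtide Western 4) and 18 (NaKtide Western 2) when the library in parentheses was left out. It was 5 with no filter on low counts, 20 with the replicate block, 43 with DESeq2 (24.1% of all genes) and 44 without the libraries rich in testis and epididymis markers. That last refit held 3 of 5 NaKtide Western libraries.

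The interaction in visceral fat called 37 members, all upward, so their NaKtide difference was higher on Western than on control diet. Over all genes 32.2% were called and 18.8% upward, a high background for the members' share. The calls took in 11 of 13 mitochondrial and 26 of 41 nuclear members, with medians of 2.08 and 1.05 against 0.30 over all genes. mt-Nd3 had a log2 interaction of 3.40 ± 0.85, mt-Atp8 one of 3.40 ± 0.82 (SE), adjusted p = 0.00585 and mt-Co3 one of 2.75 ± 0.61 (SE), adjusted p = 0.0033. Among nuclear members Ndufa5 led with 2.56 ± 0.53 (SE), adjusted p = 0.00199, followed by Cox6c with 2.26 ± 0.50. Ndufv2 reached 1.87 ± 0.39 and Ndufb10 1.67 ± 0.36. In complex V both mitochondrial members and 1 of 4 nuclear members were called. Ndufa5 was 109, 106, 198, 203 and 56.0 CPM in control and 81.8, 66.7, 60.9, 46.8 and 58.5 CPM in NaKtide control libraries, where control 5 was the only control library among the NaKtide values. The count ran from 25 to 42 as each library was left out, within 1.5 times of 37.

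**Figure D4:**
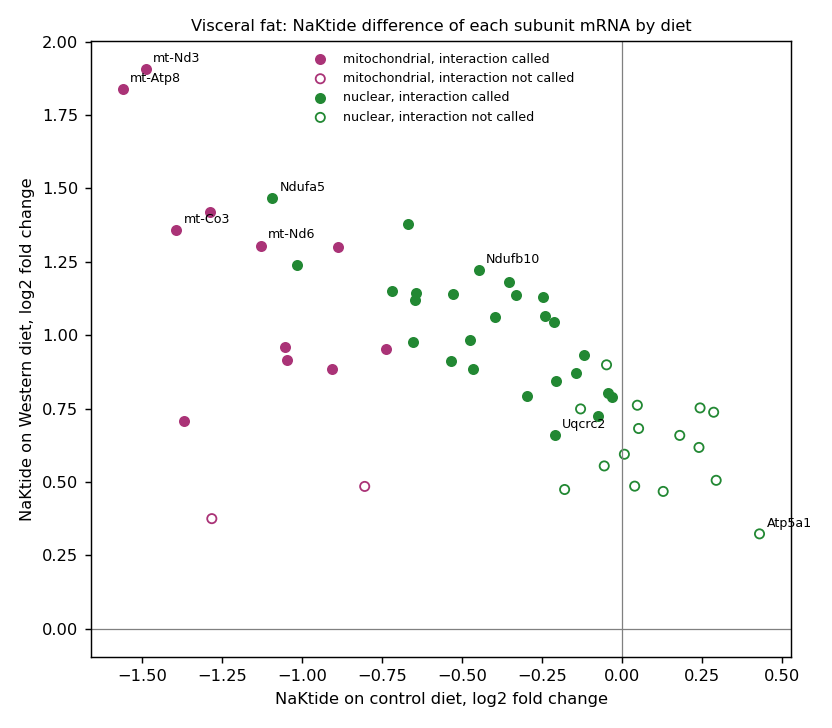
NaKtide difference of each of the 54 members in visceral fat on control diet (horizontal axis) and on Western diet (vertical axis), log2 fold change, with filled points where the interaction was called. All points lie above 0 on the vertical axis, and all 13 mitochondrial members (purple) lie left of 0 on the horizontal axis.

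Other measures moved with the NaKtide and diet differences in visceral fat. Macrophage markers summed to 202 to 843 CPM in control, 2121 to 3004 CPM in NaKtide control, 1864 to 3943 CPM in Western and 487 to 1604 CPM in NaKtide Western libraries. The groups with lower mitochondrial sums, NaKtide control and Western, had more macrophage marker RNA, with no overlap between groups with and without NaKtide on either diet. Adipocyte markers were 14591, 18769.5, 15433, 15578 and 16214 CPM in Western and 27978, 23588, 23565, 31482 and 10866 CPM in NaKtide Western libraries, where library 5 was the exception. Testis and epididymis markers ran from 0.480 to 777 CPM in Western and from 2.44 to 49835 CPM in NaKtide Western libraries. Short genes moved too: on Western diet the median log2 NaKtide difference was 0.73 for all genes under 1000 bases and -0.05 for longer ones, and in the diet comparison without NaKtide the values were -0.84 and -0.13. The nuclear members had a median exon length of 1972 bases beside 3658.5 bases for all genes. Their rho of log2 value with length was -0.43 for NaKtide on Western diet and 0.45 for diet without NaKtide. The shortest mitochondrial members were mt-Atp8 (204 bases), mt-Nd4l (297) and mt-Nd3 (348). In the diet comparison without NaKtide, mt-Atp8 and mt-Nd3 had the lowest log2 values of the mitochondrial members called, and mt-Nd4l was not called. The part of cell content and of length in the subunit differences was not tested.

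Other mitochondrial genes in visceral fat were read against the same share of all genes. With NaKtide on Western diet 21 of 38 other subunits rose and none fell (median 1.04), where 6.23% of all genes rose. Of 77 mitochondrial ribosomal proteins 18 rose, Mrpl45 first (log2 1.03 ± 0.17), and of 39 assembly factors 6, and none fell. Both mitochondrial ribosomal RNAs rose, mt-Rnr1 by 1.58 ± 0.41 and mt-Rnr2 by 1.38 ± 0.36. Of 20 genes of mitochondrial transcription, RNA and DNA upkeep 5 rose, among them Tfam (log2 0.78 ± 0.24 (SE), adjusted p = 0.0399) and the DNA helicase Twnk (0.81). None of 13 TCA cycle enzymes was called. Of the regulators, Pprc1, a coactivator of the same family as Pgc-1alpha, fell (-1.43 ± 0.16). In the diet comparison without NaKtide 17 of 38 other subunits fell, against 14.3% of all genes, and Tfam fell by a log2 value of -0.99 ± 0.24 (SE), adjusted p = 0.0104.

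Between the fat depots, all 54 members had log2 values below 0 for visceral against subcutaneous fat on either diet. The comparisons use the same control-diet and Western-diet libraries as above. Depot libraries may come from the same mice and were tested as independent. On control diet without NaKtide 21 members were lower in visceral fat, all nuclear, against 27.2% of all 17788 genes called and 7.33% called lower. They were all 4 members of complex II, all 4 nuclear members of complex V, 8 of 17 in complex I, 4 of 6 in complex III and 1 of 9 in complex IV. Atp5b had a log2 value of -1.02 ± 0.24 (SE), adjusted p = 0.00574 and Sdhb one of -1.16 ± 0.28 (SE), adjusted p = 0.00578. The mitochondrial median was -1.03 with none called. Skeletal muscle markers, with all fat libraries on one scale, summed to 8515 to 63754 CPM in subcutaneous and 29.2 to 208 CPM in visceral control libraries, and their part was not tested. Without the muscle-rich and testis-rich libraries, which left 2 control libraries in each depot, no member was called and the log2 values of Atp5b and Sdhb were -0.34 and -0.41. The count was 10 (visceral control 5) and 11 (subcutaneous control 3) when the library in parentheses was left out.

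On Western diet, where every subcutaneous and visceral library was below both marker limits, 4 members were lower in visceral fat, against 2.08% of all genes called and 1.05% called lower. Uqcrc2 was 200.3, 158, 202, 202 and 197 CPM in subcutaneous and 99.6, 110.2, 112, 106 and 106 CPM in visceral libraries, on one scale for both depots, with every visceral library below every subcutaneous one (log2 -0.84 ± 0.18 (SE), adjusted p = 0.0122). Ndufv1 was 239.9, 242, 250.1, 282 and 247 CPM against 116, 204, 108, 118 and 125 CPM, also without overlap, visceral Western 2 being the highest of its group (log2 -0.91 ± 0.21 (SE), adjusted p = 0.0189). Uqcrfs1 had a log2 value of -0.95 ± 0.25 (SE), adjusted p = 0.0403, and Cyc1, the cytochrome c1 subunit, was also called (adjusted p = 0.0406). So 3 of the 4 belonged to complex III. With 1 library left out Uqcrc2 was called in 10 of 10 refits, Ndufv1 in 4 of 10, and Uqcrfs1 and Cyc1 in 1 of 10 each. The median log2 values were -0.63 over mitochondrial and -0.76 over nuclear members. The depots' libraries did not overlap for 2 mitochondrial and 16 nuclear members, as for 6.07% of all genes. The 4 calls rose to 32 when these 2 groups were fitted alone and to 40 when the muscle-rich and testis-rich libraries of other groups were left out of the shared fit. With 1 library left out, the count was 1 (subcutaneous Western 3, subcutaneous Western 4, visceral Western 1, visceral Western 3, visceral Western 4, visceral Western 5), 2 (subcutaneous Western 1, subcutaneous Western 2, subcutaneous Western 5) and 26 (visceral Western 2).

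**Figure D5:**
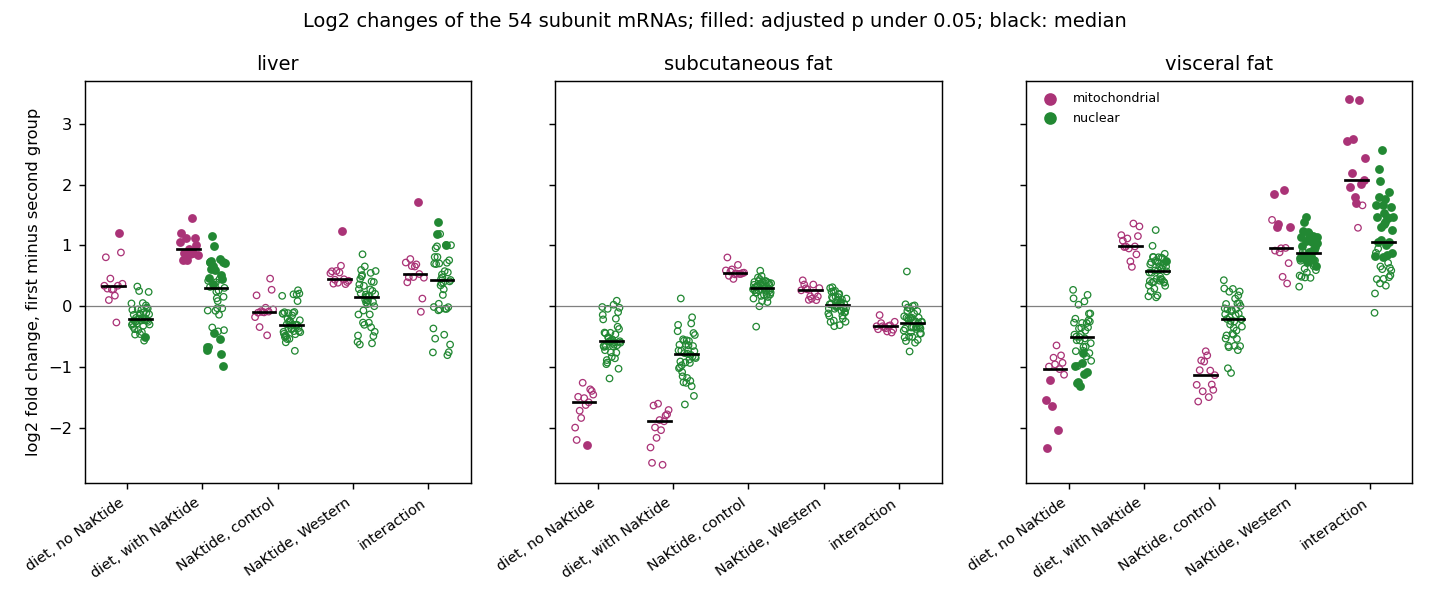
Log2 fold change of each of the 54 members in the 5 comparisons within each tissue, mitochondrial (purple) beside nuclear (green), filled where the adjusted p was under 0.05, with a black line at the median. Liver with NaKtide and visceral fat hold most calls, and in subcutaneous fat both diet comparisons have mitochondrial medians of -1.58 and -1.89 with 1 call.

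The balance of mitochondrial to nuclear mRNA was followed as the log2 ratio of the summed counts of the 13 and the 41 members, with no test. Counts listed under near-identical copies are in neither sum, so the level of the ratio is uncertain. In liver it was 2.33 ± 0.25 (SD, n = 5) in control, 2.47 ± 0.12 in NaKtide control, 2.82 ± 0.31 in Western and 3.09 ± 0.54 in NaKtide Western libraries. The NaKtide Western libraries lay above the NaKtide control libraries without overlap. In subcutaneous fat it was 2.38 ± 0.42 in control and 1.30 ± 0.25 in Western libraries, again without overlap. The difference of -1.08 was -0.73 without the muscle-rich libraries, which left 2 of 5 control libraries. With NaKtide the subcutaneous values were 2.22 ± 0.75 and 1.56 ± 0.14. In visceral fat the ratio was 1.89 ± 0.78 in control, 1.21 ± 0.28 in NaKtide control, 1.44 ± 0.19 in Western and 1.59 ± 0.40 in NaKtide Western libraries, and all groups overlapped. So the diet difference of this ratio had opposite signs in liver (0.48) and subcutaneous fat (-1.08), which was not tested.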

How the data were processed

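The authors deposited, per library, raw counts per gene, normalized counts (a signal scaled by library size factors) and FPKM, per the file headers. Per the submitters' processing notes, reads were trimmed with Trimmomatic 0.38 and aligned to GRCm38 with HISAT2 2.1.0, and DESeq2 1.20.0 was used. How reads were assigned to genes is not stated in the sources used here. Per the labels' protocols, libraries came from a stranded mRNA kit.

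The counts were tested in R 4.3.3 with edgeR 4.0.16: filterByExpr, TMM scaling and the quasi-likelihood F test on the 4 groups of a tissue (12991, 15226 and 17235 genes in liver, subcutaneous and visceral fat) or on all 40 fat libraries for the depots (17788 genes). A call is a Benjamini-Hochberg adjusted p under 0.05 over all genes tested, with no fold threshold. The SE is the log2 fold change divided by the root of F. CPM were scaled by TMM within each tissue, or over all fat libraries where the depots are compared, and FPKM were used only for levels between genes. On simulated counts the test recovered, of 100 genes changed 2-fold and 100 changed 4-fold, 53 and 90 in liver (12734 genes), 51 and 83 in subcutaneous (15144) and 8 and 57 in visceral fat (16952), for the diet comparison without NaKtide. P-values measure the spread between libraries, 1 per mouse and tissue as far as the design text says. Libraries of the 2 depots may come from the same mice and were fitted as independent.

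Named by rule were, per comparison, up to 4 mitochondrial and 6 nuclear called members with the smallest p in each direction, and up to 2 genes of each other list, and further members were named to describe each complex. Members and lists were chosen with earlier results of these data known. Alternatives were DESeq2 1.42.0, other scalings, no filter, 2 groups alone, a replicate block, a muscle covariate, and libraries left out.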

Additional observations from a re-analysis of the deposited data

Results flagged for a closer look

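Summed measures were examined in 60 sets of 5 libraries (5 measures in 12 groups) for a library far from its companions by Dixon's criterion, which chance meets in about 1 set in 20, and 10 sets met it. Subcutaneous NaKtide control 2 did so in all 5 measures: its mitochondrial members took 17.5% of counts (3.26 to 6.26% in the other 4) and summed to 391180 CPM (30188 to 62241 CPM), its nuclear members summed to 35542 CPM (10672 to 15280.1 CPM), and its ratio of mitochondrial to nuclear counts was 11.0 (2.83 to 4.63). Its sum of Cox6a2, Cox7a1 and Cox8b was 4257 CPM (51.9 to 409.9 CPM). That library also had the most skeletal muscle markers of the tissue, and their part was not tested here. In liver, control 4 had 34.2 CPM of the same 3 isoforms (1.90 to 5.37 CPM), Western 1 a ratio of 10.2 (5.92 to 6.84) and NaKtide Western 5 a ratio of 16.5 (6.45 to 7.80). In visceral fat, control 5 had 5529.6 CPM of nuclear members (10148 to 11528 CPM) and Western 2 had 10647 CPM (5939.9 to 6580.2 CPM).

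The NaKtide difference differed between the diets by the interaction test in liver for 4 members and in visceral fat for 37. In liver these were mt-Nd3 (log2 1.71), Cox7c (1.39), Cox6b1 (1.19) and Ndufs7 (1.01). In visceral fat the mitochondrial members with the smallest p were mt-Atp8 (3.40), mt-Co3 (2.75), mt-Atp6 (2.71) and mt-Nd6 (2.43). The nuclear ones were Ndufa5 (2.56), Cox6c (2.26), Ndufv2 (1.87), Ndufc2 (1.77), Ndufb10 (1.67) and Ndufb5 (1.35).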

How the results depend on the processing

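Counts of members called changed by more than 1.5 times under these settings, and the cause was not tested. With DESeq2, liver gave 7 for diet without NaKtide, 1 for NaKtide on control diet, 4 for NaKtide on Western diet and 17 for the interaction. Subcutaneous fat gave 11 for diet without and 27 for diet with NaKtide, visceral fat 26 and 9 for the same comparisons and 9 for NaKtide on control diet. The depots on Western diet gave 12. With RLE scaling the counts were 8 for the liver interaction, 0 for subcutaneous diet without NaKtide, 2 for the depots on Western diet and 1 for visceral NaKtide on control diet. With only the 2 groups in the fit they were 1 for liver diet without NaKtide, 0 for liver NaKtide on Western diet, 25 for subcutaneous diet without NaKtide, 2 and 13 for visceral diet without and with NaKtide, 0 for the depots on control and 32 on Western diet. With no filter on low counts they were 1 for liver diet without NaKtide and for liver NaKtide on control diet, 0 for subcutaneous diet without NaKtide, 3 and 0 for visceral diet without and with NaKtide, 5 for visceral NaKtide on Western diet, 21 for its interaction and 0 for the depots on Western diet.

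Leaving out liver Western 1 and NaKtide Western 1 gave 0 for diet without NaKtide, 1 for NaKtide on control diet, 31 for NaKtide on Western diet and 31 for the interaction. Leaving out liver control 2 and 4, which held 361 and 756 CPM of skeletal muscle markers, moved no count of members by over 1.5 times (33 for diet with NaKtide and 3 for the interaction, where Cox7c was no longer called), but moved 12 of 50 counts over all genes and the other lists. Leaving out the testis-rich visceral libraries gave 8 for NaKtide on control diet and 13 for diet with NaKtide. It left 2 control, 4 NaKtide control and 3 NaKtide Western libraries. Leaving out the muscle-rich subcutaneous libraries, chosen after seeing the data, left 2 of 5 control libraries and gave 0 for diet without NaKtide. The muscle covariate also gave 0, and under it mt-Nd3 turned to a log2 value of 0.34 with an adjusted p of 0.851. Control and Western libraries without NaKtide did not overlap in muscle markers, so that fit cannot separate diet from muscle content. Leaving out both kinds, also chosen after seeing the data, gave 0 for the depots on control and 40 on Western diet. Scaling on nuclear-encoded genes alone changed 1 of 170 counts by over 1.5 times.

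With each library left out in turn, liver gave 0 to 4 for diet without NaKtide, 18 to 42 with NaKtide, 0 to 1 and 0 to 17 for NaKtide on control and Western diet and 0 to 22 for the interaction. Subcutaneous fat gave 0 to 6, 0 to 35, 0 to 0, 0 to 0 and 0 to 0 in the same order, and visceral fat 2 to 32, 0 to 2, 0 to 15, 6 to 42 and 25 to 42. The depots gave 10 to 28 on control and 1 to 26 on Western diet. Under every setting, the 12 differences of the log2 ratio of mitochondrial to nuclear counts moved by less than the larger group SD. That SD exceeded some of the differences, so for those this criterion says little. For NaKtide on control diet in subcutaneous fat, the difference was -0.16 with an SD of 0.75. With 1 library left out, that difference ran from -0.47 to 0.02, a change of sign.

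Replicate numbers showed no regular pairing of the samples. Same-numbered libraries had correlations of -0.707 to 0.501, never over 0.1 in all 5 pairs. In each comparison 0 or 1 library correlated best with its own number. Low correlations cannot exclude that equal numbers mark 1 mouse across tissues. With the replicate number as a block, the count fell to 0 for liver diet without NaKtide, the liver interaction and subcutaneous diet without NaKtide, was 20 for visceral NaKtide on Western diet and 32 for its interaction, and no other count of members moved by over 1.5 times.

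Every member passed the filter on low counts, and the part of depth was not tested. The spread between libraries, as a biological coefficient of variation, was 0.251 in liver, 0.346 in subcutaneous and 0.675 in visceral fat. Where reads match several genes, levels of single members are uncertain.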

Other observations

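Esrra, the oestrogen-related receptor that regulates many subunit genes, moved in opposite directions with the Western diet in liver. It fell without NaKtide (log2 -0.49 ± 0.15 (SE), adjusted p = 0.0492) and rose with it (0.59 ± 0.15 (SE), adjusted p = 0.00962), and the interaction was 1.07 ± 0.21 (SE), adjusted p = 0.00836 by edgeR. Its mean level on Western diet was 54.5 CPM with and 28.1 CPM without NaKtide. Nrf1 was called in none of the 17 comparisons. Cox7a1, the isoform of striated muscle and brown fat, rose in liver on Western diet with NaKtide (log2 2.02 ± 0.57 (SE), adjusted p = 0.0162), from a low level.

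Between the depots on control diet 11 of 13 TCA cycle enzymes were lower in visceral fat (median log2 -0.88), against 7.33% of all genes, and on Western diet 2, against 1.05%. Skeletal muscle markers on control diet summed to 8515 to 63754 CPM in subcutaneous and 29.2 to 208 CPM in visceral libraries, and their part was not tested. Without the muscle-rich and testis-rich libraries, which left 2 control libraries per depot, no TCA cycle enzyme was called on control diet, and 12 were on Western diet. In the visceral comparisons of diet and NaKtide, none of the 13 was called by edgeR, with 0 to 5 at an unadjusted p under 0.05 and 0 to 3 called by DESeq2. The mitochondrial ribosomal proteins had 24 calls upward and 2 downward of 77 in the visceral interaction, where 32.2% of all genes were called and 18.8% upward, and 5 upward and 1 downward in the liver interaction, where 5% of all genes were called.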
